A study of Mus musculus with 2 samples.

Results

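The genes described here take up, activate, store and burn fatty acids in the heart. They were 40 symbols listed by function and sorted by step into uptake (7 genes), activation (7), carnitine shuttle (6), beta-oxidation (15) and lipid droplet (5), and a gene was kept when it had at least 20 unique molecular identifiers (UMIs, each the count of 1 captured probe molecule) over both sections. All 40 of the 40 symbols were kept, out of 19465 genes in the deposited matrices and 15236 genes with at least 20 UMIs. The rule used function and total counts and did not use any difference between the sections. The list itself was drawn up with earlier results of these data known. The member with the fewest molecules was Acsl3, with 231 UMIs over both sections, and 36 members had at least 1000.

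The data were 2 heart sections on Visium CytAssist, an assay that captures gene probes from a fixed tissue slice on an array of barcoded spots, each of which covers a small patch of tissue with several cells. The control section came from 1 α-MHC-MerCreMer+/− mouse and the transgenic section from 1 α-MHC-MerCreMer+/− hTOP2B LSL/− mouse, and both mice carried the Cre driver and received a single intraperitoneal dose of tamoxifen at 80 mg/kg. MerCreMer is a Cre recombinase driven by the α-MHC promoter, which acts in cardiomyocytes, and tamoxifen releases it to remove a LoxP-flanked stop cassette in front of a human TOP2B cDNA that is placed at Rosa26 under the CAG promoter. TOP2B is a topoisomerase, an enzyme that cuts and rejoins DNA to relieve twisting. The methods give an age of 6 weeks at tamoxifen for this transgenic model and name siblings of the same age as its controls. The sources used here do not give the day on which these sections were collected. The probe for mouse Top2b counted 1531 UMIs in the control and 1318 in the transgenic section, which does not check the label, since the transgene is human.

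With 1 animal per genotype no test between genotypes was possible, and the genotype cannot be told apart from the mouse, the block or the plane of the cut. The sections held 14376300 UMIs in 1256 spots (control) and 12953389 UMIs in 924 spots (transgenic), with medians of 11336 and 14531 UMIs per spot. Levels are given as UMIs per 1000000 UMIs of the section (CPM), differences as the log2 ratio of CPM, transgenic over control, with an exact 95% interval that covers counting error only. To show the spread inside a section, each was also cut into 4 quadrants at the middle of the tissue, and their range is given. Levels of different genes are not compared, because probes differ in how well they capture.

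Fatty acids are the main fuel of the adult heart. They reach cardiomyocytes as albumin-bound acids or are freed from lipoproteins on the capillary wall, cross the membrane, are bound to small carrier proteins and are joined to coenzyme A. Long-chain acyl-CoA then enters mitochondria through the carnitine shuttle, which malonyl-CoA inhibits at its first enzyme, and a repeating cycle of dehydrogenation, hydration, another dehydrogenation and thiolysis shortens the chain, with electrons from the first dehydrogenation passing through the electron transfer flavoprotein (ETF). What is not burned is kept as triglyceride in lipid droplets. In failing hearts, lower expression of this program is a known feature.

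The 40 genes together made up 4.05% of all control UMIs (582779) and 2.42% of transgenic UMIs (313525), a 1.67-fold lower level in the transgenic section. Of the 40 members, 29 were lower and 11 higher in the transgenic section, and their median log2 ratio was −0.60, while the median over all 15236 genes was 0.20. Of all these genes, 33.0% had a ratio below that of Acadl (−0.07) and 38.3% one below that of Fabp4 (0.02). A CPM at least 1.5-fold lower was found for 20 members, whereas 12.9% of all genes with at least 20 UMIs met that fold. At least 2-fold lower were 12 members, against 5.61% of all genes. A CPM at least 1.5-fold higher was found for 3 members (Acsl3, Acsl4 and Cpt1a), against 27.4% of all genes. Among the better counted genes, with at least 1000 UMIs, 19 of 36 members were at least 1.5-fold lower, against 16.2% of such genes. The 4 transgenic quadrants lay below all 4 control quadrants for 23 members, against 13.1% of all genes, and above them for 5 members (Gpihbp1, Acsl3, Cpt1a, Plin2 and Lipe), against 30.3%. For the other 12 members the quadrants overlapped.

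The difference was not spread evenly over the pathway. The median log2 ratio was 0.02 for uptake, −0.14 for activation, −0.88 for the carnitine shuttle, −1.02 for beta-oxidation and 0.15 for the lipid droplet. Summed over the genes of a step, CPM was 1.64-fold lower for uptake, 1.38-fold for activation and 1.46-fold for the carnitine shuttle. The beta-oxidation sum was 1.85-fold lower and the droplet sum 1.19-fold. Sums weigh abundant genes most, and without Fabp3 the uptake sum was 1.14-fold lower. All 15 beta-oxidation genes and 5 of the 6 carnitine shuttle genes were lower in the transgenic section, whereas 4 of 7 uptake genes and 3 of 5 droplet genes were higher. Most of all genes were higher too. The uptake median less that of all genes was −0.18, and the droplet median less that of all genes −0.05. With scaling by edgeR's TMM factors every log2 ratio was 0.16 lower, and the uptake median, that of Fabp4, then lay at −0.13 and the droplet median, that of Pnpla2, at −0.01.

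**Figure D1:**
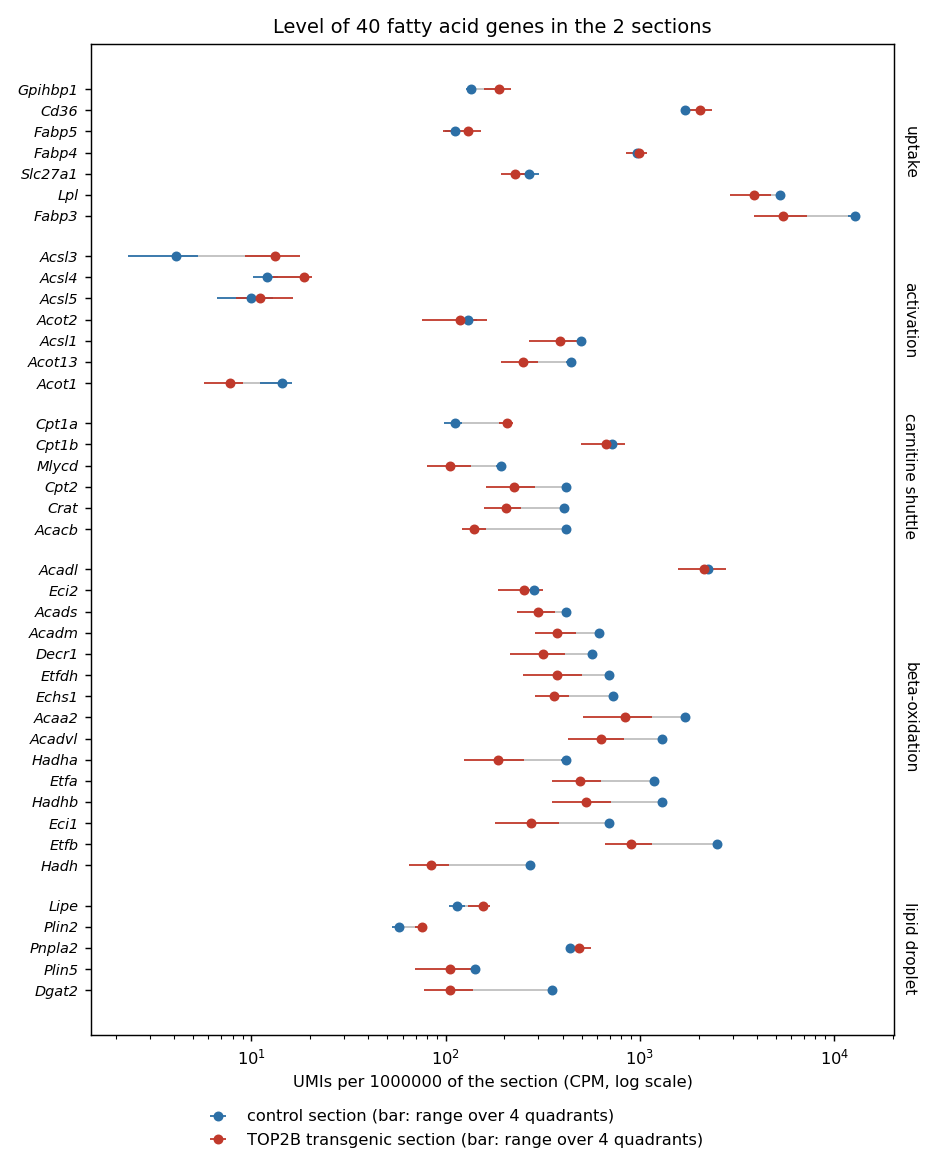
Level of each of the 40 genes in the control section (blue) and the TOP2B transgenic section (red), in CPM on a log axis, with bars for the range over the 4 quadrants of a section. The transgenic points lie to the left of the control points for all 15 beta-oxidation genes.

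**Figure D2:**
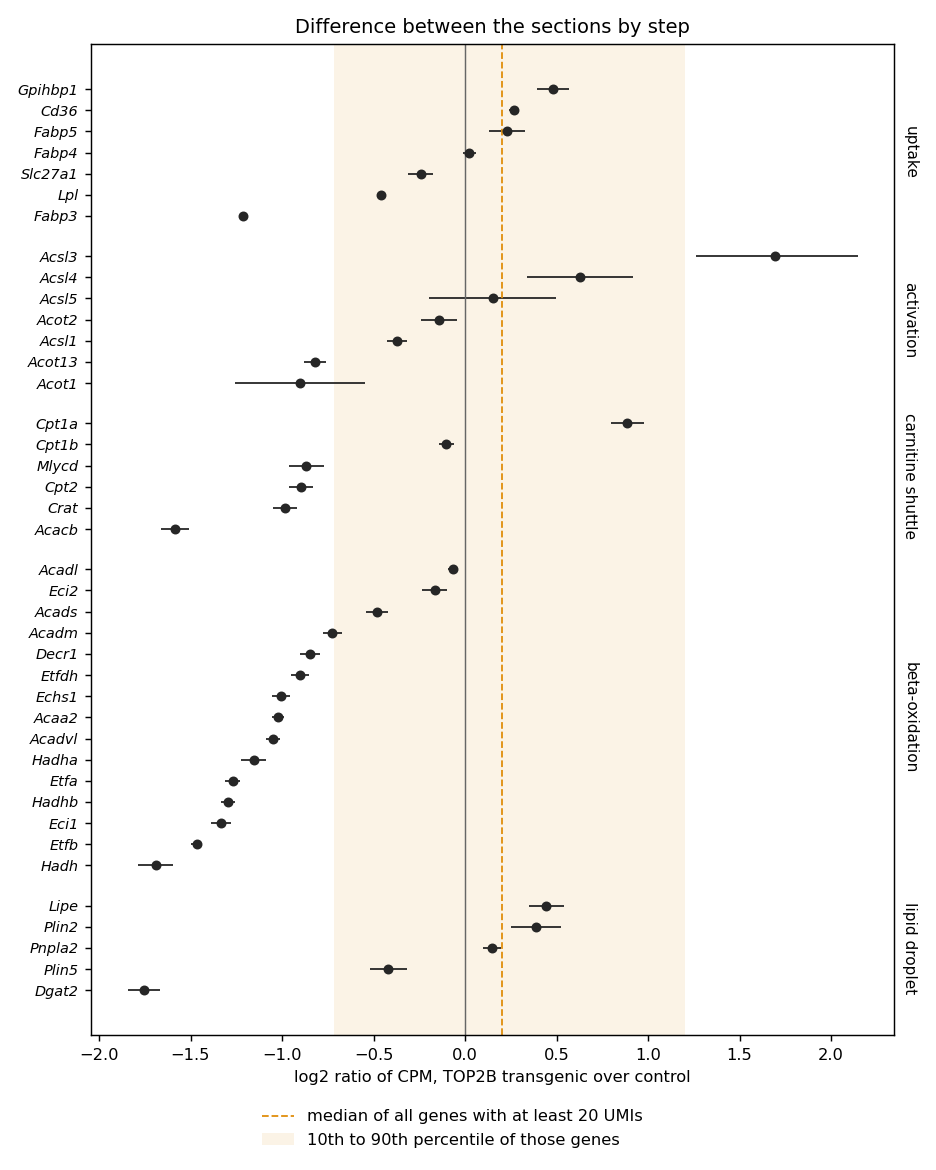
Log2 ratio of CPM, transgenic over control, for each gene by step, with exact 95% intervals for counting error. The dashed line is the median of all genes with at least 20 UMIs (0.20) and the shaded band their 10th to 90th percentile (−0.71 to 1.20).

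The summed cardiomyocyte marker genes took a smaller share of the transgenic UMIs, which bears on every ratio below. The 11 measured markers made up 10.3% of control and 6.41% of transgenic UMIs, and the list was mixed. Its 9 lower genes ran from Tnni3, cardiac troponin I (log2 ratio −1.92), and Myh6, the fast myosin (−1.69), to Tpm1, a tropomyosin (−0.0023, with an interval that included 0), while Tnnt2, cardiac troponin T (0.17), and Mybpc3, a myosin-binding protein (0.13), were higher. None of the 11 was at 0 in a section, as the cardiac label requires. In bulk sums of this kind, fewer cardiomyocytes and less RNA of these genes per cardiomyocyte cannot be told apart. Each member is therefore also given as a ratio per cardiomyocyte marker UMI, which adds 0.69 to every log2 ratio. On that scale the median member stood at 0.08, 20 of the 40 members remained below 0 and 6 were at least 1.5-fold lower. The scale moves all other genes by the same amount. The median of the members less that of all genes therefore stayed at −0.81, and the shares of all genes on this scale are not given. Since the markers differ in direction among themselves, this scale is another view and not a correction.

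Uptake genes went in both directions. Fabp3, the carrier protein that binds fatty acids inside cardiomyocytes, had 182822 UMIs (12717 CPM, quadrants 11784 to 13208) in the control and 70918 UMIs (5475 CPM, quadrants 3865 to 7266) in the transgenic section. This was 2.32-fold lower, a log2 ratio of −1.22 (−1.23 to −1.20), and the lowest of the step. Per cardiomyocyte marker UMI Fabp3 stood at −0.53. Without Fabp3 the other 6 uptake genes together were 1.14-fold lower.

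Fabp4, a carrier found mainly in capillary endothelium and fat cells, had 968 CPM in the control (13912 UMIs) and 983 CPM in the transgenic section (12738 UMIs), a log2 ratio of 0.02 (−0.01 to 0.06), and its quadrants overlapped (958 to 980 against 845 to 1085). Fabp5, a related carrier of wider expression, had 111 and 131 CPM, a log2 ratio of 0.23 (0.13 to 0.33), again with overlapping quadrants. The UMI shares of the 3 carriers therefore differed between the sections, and the part of cell mix in this was not tested. Fabp3 gave 92.2% of the UMIs of these 3 carriers in the control and 83.1% in the transgenic section, Fabp4 7.01% and 14.9%, and Fabp5 0.808% and 1.98%, and for each of the 3 the quadrant ranges did not overlap.

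Gpihbp1, the capillary protein that holds lipoprotein lipase at the vessel wall, was the highest of the uptake step, with 135 CPM in the control (1943 UMIs, quadrants 126 to 143) and 189 CPM in the transgenic section (2445 UMIs, quadrants 156 to 216), a log2 ratio of 0.48 (0.40 to 0.57). Cd36, the membrane fatty acid translocase found on both endothelium and cardiomyocytes, had 1695 and 2041 CPM, a log2 ratio of 0.27 (0.24 to 0.29), and its lowest transgenic quadrant (1662 CPM) lay within the control range (1648 to 1765). Lpl, the lipase that frees fatty acids from lipoproteins and that cardiomyocytes make, went the other way, with 5281 CPM in the control (quadrants 5211 to 5351) and 3840 CPM in the transgenic section (quadrants 2897 to 4731), a log2 ratio of −0.46. Per cardiomyocyte marker UMI Lpl was at 0.23. Slc27a1, a membrane-bound transport protein, had 270 and 228 CPM, a log2 ratio of −0.24 with overlapping quadrants, and 0.44 per cardiomyocyte marker UMI.

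Endothelial and adipocyte markers bear on these genes. The 10 endothelial marker genes summed to 1067 CPM in the control (quadrants 1017 to 1129). In the transgenic section the sum was 1085 CPM (quadrants 974 to 1149). Of the 10 genes 7 were higher and none was at 0. Among the higher ones, Cdh5 and Esam had intervals that included 0. The median log2 ratio of the list was 0.13, below the 0.20 of all genes. Past 1.5-fold were Cldn5, a tight junction protein (log2 ratio 1.26), and in the other direction Kdr, a VEGF receptor (3084 and 1465 UMIs, −0.92). Adipoq, Plin1 and Cidec, which define white fat cells, had 8, 5 and 4 UMIs in the control and 7, 3 and 6 in the transgenic section. Of the 8 adipocyte markers only Cidea and Cfd had at least 20 UMIs, and Cidea, a droplet protein of brown fat, was 372 UMIs in the control and 1457 in the transgenic section. Ucp1, also a brown fat gene, went the other way, with 12 UMIs in the control and 6 in the transgenic section. Cfd had 16 and 13, Lep 8 and 4, and Retn 8 and 1. The part of endothelial cells in the uptake values was not tested.

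In the activation step the RNA of the main heart synthetase was lower, and of its low-count relatives Acsl3 and Acsl4 were higher. Acsl1, the acyl-CoA synthetase that carries most of this reaction in heart, had 499 CPM in the control (7174 UMIs, quadrants 490 to 513) and 386 CPM in the transgenic section (4996 UMIs, quadrants 269 to 489), a log2 ratio of −0.37 (−0.42 to −0.32). The highest transgenic quadrant came within 1 CPM of the lowest control quadrant, and per cardiomyocyte marker UMI Acsl1 stood at 0.31.

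Acsl3, a synthetase of the endoplasmic reticulum and droplets, had 59 UMIs in the control (4.10 CPM, quadrants 2.30 to 5.33) and 172 UMIs in the transgenic section (13.3 CPM, quadrants 9.22 to 17.8). It was 3.24-fold higher, a log2 ratio of 1.69 (1.26 to 2.15), the highest of the 40 members. Of all genes with at least 20 UMIs, 95.1% had a lower ratio. Acsl4, a synthetase that prefers arachidonate, had 173 and 241 UMIs (12.0 and 18.6 CPM), a log2 ratio of 0.63 (0.34 to 0.92), with quadrants that overlapped. Acsl5 had 143 UMIs in each section, and its interval of −0.19 to 0.49 included 0. Acsl1 gave 95.03% of the UMIs of the 4 synthetases in the control and 89.99% in the transgenic section, while the share of Acsl3 was 0.782% and 3.10%.

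The thioesterases, which split acyl-CoA back into acid and coenzyme A, were lower. Acot1, the cytosolic form, was the lowest of the step, with 207 UMIs in the control (14.4 CPM, quadrants 11.1 to 16.1) and 100 in the transgenic section (7.72 CPM, quadrants 5.69 to 8.99), a log2 ratio of −0.90 (−1.26 to −0.55). Acot2, the mitochondrial form, had 131 and 118 CPM, a log2 ratio of −0.14 (−0.24 to −0.05) with overlapping quadrants, and 0.54 per cardiomyocyte marker UMI. Acot1 and Acot2 are near-identical copies, and the sources used here do not say whether their probes separate them, so the split between them is uncertain. Acot13 had 439 and 249 CPM, a log2 ratio of −0.82, with all transgenic quadrants lower.

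In the carnitine shuttle the isoforms of 1 enzyme differed, with Cpt1a higher and Cpt1b little changed over the whole section. Cpt1a and Cpt1b encode the liver and muscle forms of carnitine palmitoyltransferase 1, the outer membrane enzyme that commits long-chain acyl groups to oxidation. Cpt1a had 1607 UMIs in the control (112 CPM, quadrants 97.4 to 121) and 2677 in the transgenic section (207 CPM, quadrants 187 to 221), a log2 ratio of 0.89 (0.80 to 0.98), and every transgenic quadrant lay above every control quadrant. Cpt1b had 10366 UMIs (721 CPM, quadrants 708 to 733) and 8700 UMIs (672 CPM, quadrants 495 to 839), a log2 ratio of −0.10 (−0.14 to −0.06) that was 0.58 per cardiomyocyte marker UMI. Cpt1a therefore made up 13.4% of Cpt1 UMIs in the control (exact interval 12.8 to 14.0, quadrants 11.7 to 14.5) and 23.5% in the transgenic section (22.8 to 24.3, quadrants 20.9 to 27.4). This share does not depend on the scaling of the sections. In the 50% of spots richest in cardiomyocyte markers the transgenic share was 20.6%, and there the log2 ratio of Cpt1b was 0.20.

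The enzymes around Cpt1 were lower. Acacb, acetyl-CoA carboxylase 2, which makes the malonyl-CoA that inhibits Cpt1 at the mitochondrial surface, had 5991 UMIs in the control (417 CPM, quadrants 409 to 432) and 1802 in the transgenic section (139 CPM, quadrants 121 to 161). It was 2.996-fold lower, a log2 ratio of −1.58 (−1.66 to −1.51), the lowest of the step, and 1.54% of all genes had a lower ratio. Mlycd, the decarboxylase that removes malonyl-CoA, had 192 and 105 CPM, a log2 ratio of −0.87 (−0.96 to −0.77). Acacb and Mlycd, which act on malonyl-CoA in opposite directions, were thus both lower, Acacb by more. Cpt2, the inner membrane transferase, had 418 and 225 CPM (log2 ratio −0.90), and Crat, which moves acetyl groups to carnitine, had 406 and 205 CPM (log2 ratio −0.98). All transgenic quadrants of these 4 genes were below all control quadrants, and per cardiomyocyte marker UMI the 4 genes stayed below 0, Acacb at −0.90 and the other 3 between −0.18 and −0.30.

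Cpt1a and Acacb moved furthest apart in this step, so the RefSeq windows around their starts are shown, from 250 bases before to 50 after the start (build GRCm38.p6). Capitals mark AGGTCA on either strand, the core motif bound by PPAR, ERR and other nuclear receptors that regulate this program. The Cpt1a window is chr19:3323051-3323350 and the Acacb window chr5:114165268-114165567, both on the plus strand.
Cpt1a: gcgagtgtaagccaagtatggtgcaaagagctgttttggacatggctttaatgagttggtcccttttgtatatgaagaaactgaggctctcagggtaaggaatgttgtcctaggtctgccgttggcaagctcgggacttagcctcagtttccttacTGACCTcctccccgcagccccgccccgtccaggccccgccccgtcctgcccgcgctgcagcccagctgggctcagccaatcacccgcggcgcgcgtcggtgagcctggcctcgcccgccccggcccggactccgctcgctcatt
Acacb: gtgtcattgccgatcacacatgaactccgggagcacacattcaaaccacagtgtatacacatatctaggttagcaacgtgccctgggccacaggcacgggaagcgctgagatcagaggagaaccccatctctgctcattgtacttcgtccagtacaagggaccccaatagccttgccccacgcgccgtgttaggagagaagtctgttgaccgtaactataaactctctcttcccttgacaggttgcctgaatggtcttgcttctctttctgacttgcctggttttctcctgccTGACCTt

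In Cpt1a the motif began 94 bases before the start and in Acacb 43 bases after it. Windows were listed for 30 of the 40 members, 35 windows in all, and AGGTCA stood in 9 of the 35 (25.7%), from 8 genes: Acacb, Acadm, Acadvl, Cd36, Cpt1a, Echs1, Plin2 and Plin5. It was held by 16.3% of all 32851 windows. The 8 genes include Cpt1a and Plin2, which were higher, and Acacb, Acadvl and Echs1, which were at least 2-fold lower in the transgenic section. The longer ERR element TNAAGGTCA, which contains AGGTCA, was in none of the 35 windows and in 1.28% of all windows. These are matches of letters in a short window and not bound sites.

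The 15 beta-oxidation genes summed to 14882 CPM in the control (quadrants 14676 to 15186) and 8035 CPM in the transgenic section (quadrants 5693 to 10452), 1.85-fold lower. All 15 genes were lower, 12 of them at least 1.5-fold and 9 at least 2-fold, and for 13 of the 15 all 4 transgenic quadrants were under the control range. The exceptions were Acadl and Eci2. Per cardiomyocyte marker UMI 12 of the 15 stayed below 0, and Acads, Acadl and Eci2 were at 0.21, 0.62 and 0.52.

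The acyl-CoA dehydrogenases, which carry out the first oxidation of each round and differ in the chain length they accept, did not move together. Acadvl, for very long chains, had 18654 UMIs in the control (1298 CPM) and 8123 in the transgenic section (627 CPM), a log2 ratio of −1.05 (−1.09 to −1.01). Acadm, for medium chains, had 618 and 374 CPM, a log2 ratio of −0.73 (−0.78 to −0.67), and Acads, for short chains, 415 and 297 CPM, a log2 ratio of −0.48 (−0.54 to −0.42). Acadl, for long chains, was the highest of the step, with 32231 UMIs in the control (2242 CPM, quadrants 2199 to 2266) and 27716 in the transgenic section (2140 CPM, quadrants 1561 to 2764), a log2 ratio of −0.07 (−0.09 to −0.04). Among the UMIs of the 4 dehydrogenases, Acadl made up 49.0% in the control and 62.2% in the transgenic section (quadrants 48.6 to 49.6 and 61.5 to 62.9), while Acadvl made up 28.4% and 18.2%, Acadm 13.5% and 10.9%, and Acads 9.08% and 8.65%. The Acadl and Acadvl shares were far narrower over quadrants than their CPM, and for Acadl, Acadvl and Acadm the quadrant ranges of the sections did not overlap.

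Hadha and Hadhb encode the alpha and beta subunits of the mitochondrial trifunctional protein, which carries out the last 3 reactions on long chains. Hadha had 5943 UMIs in the control (413 CPM, quadrants 390 to 439) and 2407 in the transgenic section (186 CPM, quadrants 124 to 252), a log2 ratio of −1.15 (−1.22 to −1.09). Hadhb had 18690 UMIs (1300 CPM, quadrants 1267 to 1358) and 6858 UMIs (529 CPM, quadrants 351 to 705), a log2 ratio of −1.30 (−1.34 to −1.26). The subunits kept similar proportions, with Hadha at 24.1% of their UMIs in the control and 26.0% in the transgenic section, and the upper control quadrant (25.5%) was just under the lowest transgenic quadrant (25.6%). The genes stand head to head, with 273 bases between their RefSeq starts, and their windows overlap by 228 bases (chr5:30155003-30155230, GRCm38.p6). The Hadhb window is shown for this shared promoter (chr5:30155003-30155302, plus strand, GRCm38.p6), with GC boxes, GGGCGG on either strand, in capitals.
Hadhb: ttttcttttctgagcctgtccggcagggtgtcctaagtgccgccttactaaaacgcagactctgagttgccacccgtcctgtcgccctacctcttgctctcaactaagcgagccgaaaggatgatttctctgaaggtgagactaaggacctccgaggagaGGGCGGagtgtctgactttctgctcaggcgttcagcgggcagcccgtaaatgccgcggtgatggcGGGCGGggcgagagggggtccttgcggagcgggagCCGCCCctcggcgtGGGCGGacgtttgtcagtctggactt

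The Hadhb window held 4 GC boxes and the overlapping Hadha window 1. Only 1 of the 4, the first, therefore lies whole in the stretch that the windows share. GC boxes stood in 24 of the 35 member windows (68.6%) and in 35.7% of all windows, a CCAAT box in 18 member windows (51.4%) against 37.4%, and a TATAAA sequence in 1 member window, that of Acacb, against 13.6%.

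ETF and its oxidoreductase, which pass electrons from the acyl-CoA dehydrogenases to ubiquinone, were lower to unequal degrees. Etfb had 35654 UMIs in the control (2480 CPM, quadrants 2423 to 2550) and 11621 in the transgenic section (897 CPM, quadrants 660 to 1148), a log2 ratio of −1.47 (−1.50 to −1.44). Etfa, the other subunit of the flavoprotein, had 1181 and 490 CPM, a log2 ratio of −1.27 (−1.31 to −1.23), and Etfdh, the oxidoreductase, 695 and 372 CPM, a log2 ratio of −0.90 (−0.95 to −0.85). Etfb made up 56.9% of the UMIs of these 3 genes in the control and 51.0% in the transgenic section, and Etfdh 16.0% and 21.2%.

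Hadh, the 3-hydroxyacyl-CoA dehydrogenase for short and medium chains, was the lowest of the step. It had 3902 UMIs in the control (271 CPM, quadrants 262 to 287) and 1089 in the transgenic section (84.1 CPM, quadrants 64.8 to 104), 3.23-fold lower, a log2 ratio of −1.69 (−1.79 to −1.59), and −1.005 per cardiomyocyte marker UMI. Echs1, the hydratase for short chains (log2 ratio −1.01), Acaa2, the mitochondrial thiolase (−1.02), and Decr1, a reductase needed for unsaturated chains (−0.85), lay near the step median. The isomerases for unsaturated chains differed. Eci1 had 695 and 276 CPM, a log2 ratio of −1.34, and Eci2 had 285 and 254 CPM, a log2 ratio of −0.17 with overlapping quadrants. Eci2 gave 29.1% of the UMIs of this pair in the control and 48.0% in the transgenic section (quadrants 28.5 to 29.5 and 45.4 to 50.9).

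**Figure D3:**
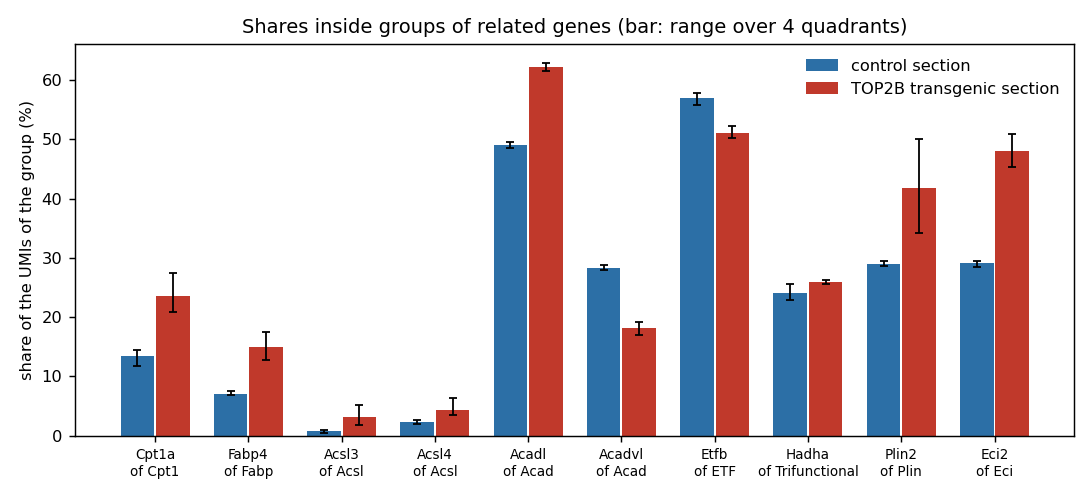
Share of 10 genes in the UMIs of their group of related genes, for the control section (blue) and the transgenic section (red), with bars for the range over 4 quadrants. Acad stands for Acads, Acadm, Acadl and Acadvl, and Trifunctional for Hadha and Hadhb. The shares of Cpt1a, Acadl and Eci2 are higher in the transgenic section, that of Acadvl lower, and that of Hadha nearly the same (24.1% and 26.0%).

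In the lipid droplet step Dgat2 and Plin5 were lower and Plin2 and Lipe higher. Dgat2, a diacylglycerol acyltransferase that adds the last acyl group of triglyceride, had 5076 UMIs in the control (353 CPM, quadrants 336 to 373) and 1354 in the transgenic section (105 CPM, quadrants 77.4 to 138). It was 3.38-fold lower, a log2 ratio of −1.76 (−1.84 to −1.67), the lowest of the 40 members, and 1.04% of all genes had a lower ratio. Per cardiomyocyte marker UMI Dgat2 stood at −1.07.

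Plin2, a coat protein found on droplets of most cells, had 829 UMIs in the control (57.7 CPM, quadrants 53.1 to 61.0) and 977 in the transgenic section (75.4 CPM, quadrants 69.5 to 78.8), a log2 ratio of 0.39 (0.25 to 0.52). Plin5, the coat protein of oxidative tissue that ties droplets to mitochondria, had 141 CPM in the control (quadrants 133 to 146) and 105 CPM in the transgenic section (quadrants 69.5 to 146), a log2 ratio of −0.42 (−0.52 to −0.32), and 0.27 per cardiomyocyte marker UMI. Plin2 gave 29.0% of the UMIs of these coat proteins in the control and 41.7% in the transgenic section, with quadrants of 28.6 to 29.5 and 34.3 to 50.0.

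Lipe, hormone-sensitive lipase, was the highest of the step, with 115 CPM in the control (quadrants 104 to 125) and 156 CPM in the transgenic section (quadrants 131 to 168), a log2 ratio of 0.45 (0.35 to 0.54). Pnpla2, adipose triglyceride lipase, which starts the release of fatty acids from droplets, had 6290 and 6282 UMIs (438 and 485 CPM), a log2 ratio of 0.15 with overlapping quadrants that was −0.01 with TMM factors.

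Inside the sections, the control was close to uniform and the transgenic section was not. Moran's I, a deposited score per gene of how alike neighboring spots are, with 0 for no pattern, had a median over the 40 members of 0.03 in the control (−0.01 to 0.12) and 0.31 in the transgenic section (−0.00 to 0.69). It was higher in the transgenic section for 39 of the 40 members, but also for 97.3% of all genes with at least 1000 UMIs, whose medians were 0.01 and 0.06. The most patterned members of the transgenic section were Fabp3 (0.69), Acadl (0.67), Lpl (0.66), Acaa2 (0.66) and Etfb (0.60). The least patterned were Acsl5 (−0.00), Acsl4 (0.01), Acot1 (0.03), Acsl3 (0.03) and Plin2 (0.05), which also had few UMIs per spot.

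The summed CPM of the 15 beta-oxidation genes per spot had a 10th percentile of 12709, a median of 14801 and a 90th percentile of 17012 over 1249 control spots with at least 1000 UMIs. Over 921 such transgenic spots these values were 3979, 7158 and 13185. The transgenic spots therefore spread over a wider range and reached into the lower part of the control range. The variance of the spot counts was 2.21 times what counting error gives in the control and 19.8 times in the transgenic section.

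**Figure D4:**
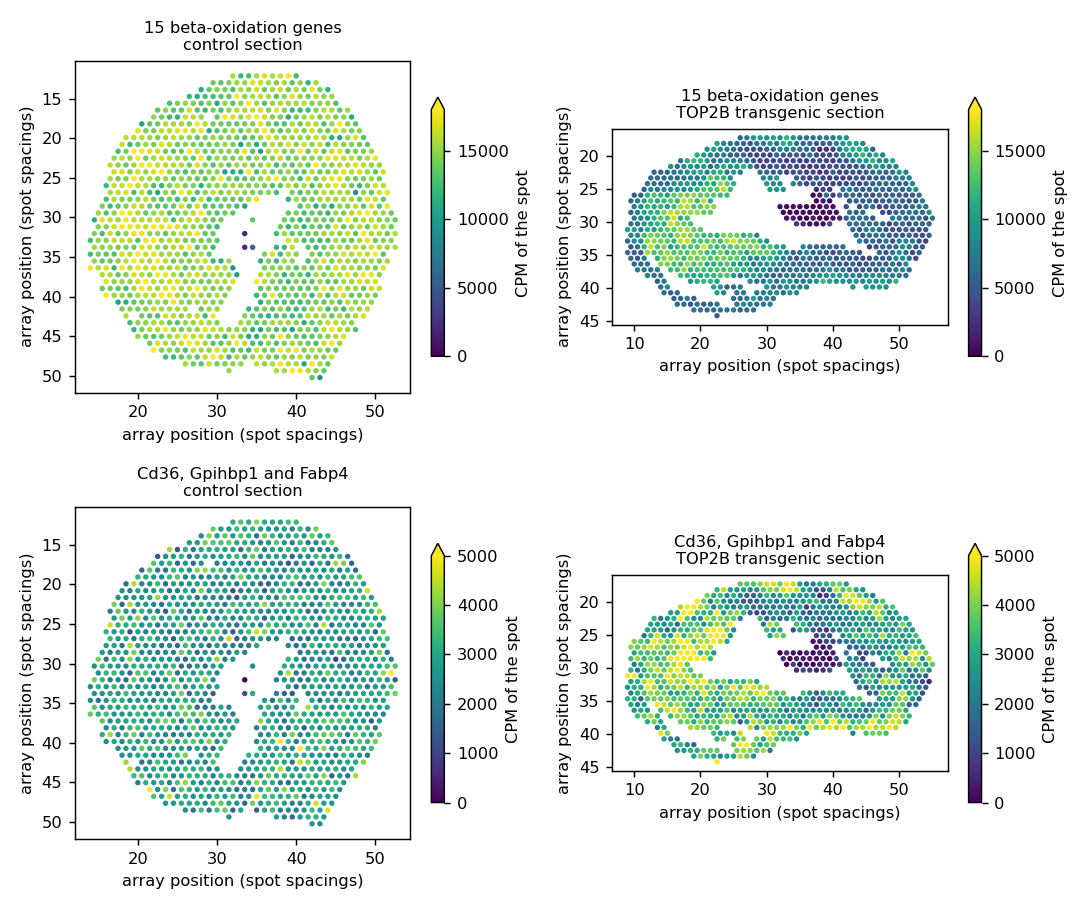
Maps of the sections with 1 point per spot that had at least 1000 UMIs, axes in spot spacings, color for CPM of the spot. The upper row sums the 15 beta-oxidation genes and the lower row Cd36, Gpihbp1 and Fabp4, with 1 color scale per row. Beta-oxidation is even in the control and brightest toward the left of the transgenic section, where 1 group of spots is dark in both rows.

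Some spots were rich in erythroid RNA. At least 10% of UMIs came from the 4 measured erythroid genes in 8 control and 54 transgenic spots, and in those transgenic spots erythroid genes made up 54.1% of UMIs and beta-oxidation genes 2790 CPM. Without these spots beta-oxidation was 14888 CPM in control tissue and 8157 CPM in the transgenic section, all 15 genes were still lower, and the counts of members with all quadrants lower (23) or higher (5) were as before.

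Within the transgenic section 37 of the 40 members were higher in spots rich in cardiomyocyte marker genes than in spots poor in them. Spots of each section were ranked by the share of cardiomyocyte marker UMIs and divided into 3 groups of equal size. In the control the beta-oxidation sum was 14394, 15017 and 15184 CPM in the poorest, middle and richest groups. In the transgenic section it was 5097, 7500 and 11371 CPM. The richest transgenic group thus lay below the poorest control group for the sum. For 13 of the 15 single genes it lay below all 3 control groups, the exceptions again being Acadl and Eci2. The ranking was made inside each section. Cardiomyocyte markers made up 7.85% of UMIs in the richest transgenic group and 9.58% in the poorest control group. The groups were thus not matched between the sections in marker share. In the richest transgenic group 22 of all 40 members lay below all 3 control groups. For these and the later counts over groups of spots the share over all genes is not given. They describe the members only and are not read as particular to them.

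The carnitine shuttle sum had the same order, with 1122, 1544 and 1967 CPM in the transgenic groups and 2248 to 2276 CPM in the control groups. The droplet sum was 744, 892 and 1135 CPM in the transgenic groups against 1079 to 1135 CPM in the control, so the sum of its richest group was at the control level. Its single genes were not all at that level. In that group 4 of the 5 genes lay above the whole control section, while Dgat2 had 140 CPM against 337 to 371 CPM in the control groups. The richest transgenic group was above the whole control section for 16 of the 40 members. They included 6 that were lower over the whole section, namely Acsl1 (517 CPM), Acot2 (176 CPM), Cpt1b (878 CPM), Acadl (2992 CPM), Eci2 (332 CPM) and Plin5 (160 CPM).

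Over spots, the rank correlation of the beta-oxidation sum with the cardiomyocyte marker share was 0.21 in the control (1249 spots) and 0.83 in the transgenic section (921 spots). For uptake it was 0.13 and 0.82. Spots share a library and their totals, and blood-rich spots are low in both quantities, so these values are descriptions. In the poorest transgenic group 4.68% of UMIs were erythroid, against 0.847% and 0.791% in the middle and richest groups. The part of blood in the pattern across these groups was not tested.

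Of the low-count synthetases, Acsl3 and Acsl5 ran against this order, while Acsl4 had no steady order (20.5, 17.0 and 18.5 CPM from poorest to richest). These differences rest on few UMIs and have no interval. In the control they were 0.83 for Acsl3, −0.73 for Acsl5 and −0.07 for Acsl4. The richest minus poorest log2 difference in the transgenic section was −0.76 for Acsl3 (9.93 against 16.9 CPM), −0.99 for Acsl5 and −0.15 for Acsl4, whereas the other 37 members were above 0, up to 1.40 for Decr1. Cpt1a (0.22), Fabp5 (0.04) and Plin2 (0.01) differed little between the groups. The log2 ratio of fibroblast markers was above 0 for 8 of 8 genes, with intervals of Gsn and Dpt that included 0. At least 1.5-fold higher were 5 of them, against 27.4% of all genes, and Col1a1 (2.68) and Col1a2 (2.66) were the highest. Their sum was 1478 to 1760 CPM over control quadrants and 3388 to 5681 CPM over transgenic quadrants. Macrophage markers were above 0 for 8 of 8, 7 of them at least 1.5-fold higher, and the interval of Adgre1 included 0. The macrophage sum was 290 to 337 and 537 to 687 CPM. No marker of these lists was at 0 in a section. The part of fibroblasts and macrophages in the higher values of Acsl3, Acsl4, Cpt1a, Plin2 and Lipe was not tested.

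Transgenic spots were also ranked by Myh7 as a share of Myh6 and Myh7 UMIs, since Myh7 is the slow myosin that stressed mouse ventricle re-expresses. The 885 spots with at least 20 UMIs of these myosins gave 3 groups of 295. The beta-oxidation sum was 9078, 8246 and 6969 CPM from the lowest to the highest Myh7 share, and all 15 genes were lower in the highest group, by log2 differences from −0.26 (Acadl) to −0.56 (Acaa2). Of the 40 members 31 were lower there, and the share of all genes that was lower there is not given. Among these lower members Cpt2 came next after Acot1 (−0.63), at −0.57, with 264 and 178 CPM. Acsl3 (0.87) and Acacb (0.24) were higher in the high Myh7 group, and Cpt1a (0.03), Cd36 (−0.01) and Gpihbp1 (0.01) were near 0. Cardiomyocyte markers made up 6.76% of UMIs in the lowest and 5.98% in the highest Myh7 group, and 48 against 136 of the spots were at the tissue edge.

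Edge and interior spots differed little in the beta-oxidation sum, while some single members differed more. Spots with all 6 neighbors in tissue had 14946 CPM of beta-oxidation genes in the control against 14488 at the edge. In the transgenic section these were 8149 against 7745 CPM. Fabp5 had 107 CPM in the interior and 141 CPM at the edge of the control. Dgat2 had 111 and 87.6 CPM in the transgenic section.

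**Figure D5:**
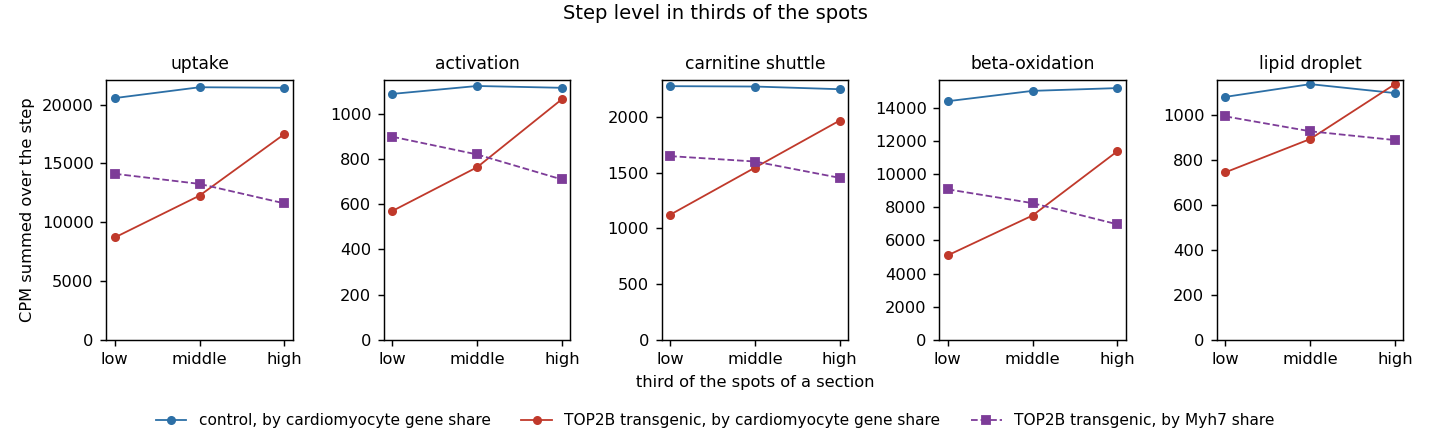
Summed CPM of each step in 3 equal groups of spots, ordered from low to high. Circles rank spots by cardiomyocyte gene share in the control (blue) and transgenic (red) sections, and purple squares rank transgenic spots by Myh7 share. The control lines are nearly flat, the red lines rise, and the purple lines fall. The control groups span a narrower range of cardiomyocyte gene share than the transgenic groups.

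Other fatty acid genes were taken from lists by function, of which 70 of 72 had at least 20 UMIs. Of the 70, 40 were lower and 30 higher in the transgenic section, 24 were at least 1.5-fold lower (12.9% of all genes with at least 20 UMIs) and 12 at least 1.5-fold higher (27.4% of all genes), and their median log2 ratio was −0.18 (0.20 for all genes). Beside the counts of lower genes in these lists, 33.0% of all genes were below Acadl (−0.07) and 38.3% below Fabp4 (0.02). Further genes of mitochondrial oxidation were lower in 14 of 17 cases. Those with at least 200 UMIs ran from Acss1, a mitochondrial acetyl-CoA synthetase (−1.21), to Acot11, a thioesterase (0.27). With fewer UMIs, Acsl6 was at −1.23, Acot9 at 0.86 and Acsf2 at 1.08, the last with an interval that included 0. Of genes for transport and lipoproteins 4 of 7 were lower. Those with at least 200 UMIs ran from Vldlr, the receptor for very-low-density lipoprotein (5235 and 1553 UMIs, −1.60), to Slc27a4, a transport protein (0.34). With fewer UMIs, Angptl4 was at 0.65 and Slc27a6 at 0.41, the latter with an interval that included 0. Peroxisomal genes were lower in 7 of 11 cases, from Abcd3, a peroxisomal transporter (−0.85), to Acox3, an acyl-CoA oxidase (0.64).

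Among the other droplet genes 12 of 20 were lower, and the lowest was Fitm2, an endoplasmic reticulum protein needed for droplet formation, with 2766 UMIs in the control and 403 in the transgenic section (−2.63). Its relative Fitm1, of the same function in muscle, was at −2.56. The highest of that list was Lpin2, a phosphatidate phosphatase (0.64). Of 11 synthesis genes 10 were higher, 6 of them at least 1.5-fold (27.4% of all genes), and their median log2 ratio was 0.83, where that of all genes was 0.20. The intervals of Elovl5 and Fads2, an elongase and a desaturase, included 0. The higher genes included Scd2, a desaturase (1.49), and Fasn, fatty acid synthase (373 and 753 UMIs, 1.16), whereas Me1, which makes NADPH for synthesis, was lower (−0.62). Oxct1, the enzyme that lets muscle burn ketone bodies, was the lowest of its list (26783 and 10518 UMIs, −1.20). Elovl6 was not among the genes measured.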

How the data were processed

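Per the labels and the study's methods, FFPE sections of 5 μm were hybridised with probes, captured by Visium CytAssist and sequenced. The deposited matrices hold the UMI count of each gene in each tissue spot, with no normalization by the authors. The file headers name Space Ranger 2.0.0, the submitters' processing notes name bcl2fastq and the builds GRCm39 and mm39, and the probe set is not given in the sources used here. The deposited Moran's I is a score per gene and was used as given. The deposited array positions placed the spots.

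Counts were added up over all spots of a section with Python (pandas, scipy) and divided by the section total. Intervals were exact conditional binomial for ratios and Clopper-Pearson for shares, at the 95% level, and cover counting error only. Spots are not replicates, so no test was run, the study's comparison over spots included. The members, steps, marker lists and other fatty acid genes were chosen with earlier results of these data known. Genes given in full were the highest and lowest of each step and the isoform and subunit groups, and of the other lists the highest and lowest gene with at least 200 UMIs. Fitm1, Fasn, genes with fewer UMIs that lay outside the range of their list and spot-level examples were named after their values were seen. Of the other lists, 1 gene is not reported here.

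Alternatives were edgeR TMM and DESeq2 size factors, used for scaling only, totals without the 50 most abundant genes, subsets of spots, a mean over spots, 1 CPM added and other UMI minimums. Totals of the cardiomyocyte marker genes and the removal of spots with at least 10% erythroid UMIs were added after seeing the data. Scripts were tested on simulated data. Promoter sequences are RefSeq's (GRCm38.p6), and other gene coordinates are not printed because the builds differ. The sections use 725 barcodes in common, which are fixed array positions.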

Additional observations from a re-analysis of the deposited data

How the results depend on the processing

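No paired analysis was possible because each genotype had 1 mouse and the sections share no animal. The design has 1 section per genotype, so no library could be left out, and spread between animals is unknown. The median log2 ratio of the 40 members was −0.60 and became −0.76 with TMM, −0.75 with DESeq2 size factors, −0.69 without the 50 most abundant genes, −0.66 in the 50% of spots poorest in erythroid genes, −0.33 in the 50% richest in cardiomyocyte genes and 0.083 on cardiomyocyte marker totals, where 6 members in place of 20 were at least 1.5-fold lower. Marker totals move all genes alike, and the median of the members less that of all genes stayed at −0.81 there. The median of the beta-oxidation step stayed between −1.18 and −0.34, with 15 of 15 genes lower except on cardiomyocyte marker totals (12) and in cardiomyocyte-rich spots (13).

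The share of all genes whose interval excluded 0 is not given, so the count that follows describes the members only. Of the members whose interval excluded 0 (29 lower, 9 higher), 10 changed sign under at least 1 of 12 alternatives. Of the other 2, Fabp4 was at −0.13 with TMM and DESeq2, −0.06 without the 50 most abundant genes and −0.02 as a mean over spots, and Acsl5 lay between −0.08 and 0.84. With TMM Pnpla2 and the droplet median were at −0.0085, and with DESeq2 both were at −0.0018. In cardiomyocyte-rich spots Acot2 was at 0.24, Cpt1b at 0.20, Acadl at 0.28 and Eci2 at 0.068, and the transgenic Cpt1a share was 20.6%. On cardiomyocyte marker totals the activation median was 0.54, Lpl 0.23, Slc27a1 0.44, Acsl1 0.31, Acot2 0.54, Cpt1b 0.58, Acads 0.21, Acadl 0.62, Eci2 0.52 and Plin5 0.27. The cause of these differences was not tested, and the scalings differ by construction in the total they divide by. All 40 members had at least 200 UMIs, so other UMI minimums changed nothing. Depth limits Acsl3, Acsl4, Acsl5 and Acot1, with 59 to 207 control UMIs.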
